A study of Homo sapiens with 18 samples.

Results

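The interferon response genes described here are 39 genes that cells switch on after interferon, taken by symbol from the deposited gene counts; all 39 had a row among the 18670 genes of the table. The libraries came from U937 and THP-1, established human monocytic cell lines. U937 cells carried either an empty lentiviral vector or a lentiviral short hairpin against S100A9 (shS100A9), and THP-1 cells carried either an empty lentiviral vector or an S100A9 overexpression vector. Both THP-1 populations were also sequenced after 36 hours in 1 µM Adavivint, a small molecule that inhibits kinases of the CLK and DYRK families and dampens Wnt signalling. Each of the 6 groups held 3 libraries. All cells, controls included, had been transduced with lentivirus and selected with puromycin at 2 µg/mL, and untransduced cells were not analysed here. The hairpin sequence, the promoter of the vectors and whether cells were kept as pools or clones were not given in the sources used here. Because no label says that replicates were grown separately, the p-values cover only variation among these libraries, which could be technical.

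Interferons bind paired receptors whose JAK kinases phosphorylate STAT proteins. After type I and type III interferon, a complex that holds STAT2 and IRF9 binds a promoter element, the interferon-stimulated response element (ISRE), while interferon gamma acts mainly at a shorter element, the gamma-activated site. The genes induced in this way include sensors of foreign nucleic acid, proteins that block virus entry or translation, the ubiquitin-like protein ISG15 with its ligases, and chemokines. Monocytic cells make many of them at a low level without added interferon.

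Promoter sequences of the members on which the comparisons turn are printed to show the element itself. They are RefSeq sequences of GRCh38.p14 covering the 250 bases before a transcription start, 5′ to 3′ on the strand of the gene, with the ISRE core (GAAA, any 2 bases, GAAA, on either strand) in capitals. ISG15 stands for the classic arrangement, IFI44 and XAF1 for the members that moved furthest with the knockdown, IFI27 and CXCL10 for the called members with the largest rise and fall with Adavivint among those with at least 1 CPM in a group.
ISG15, chr1:1013247-1013496, plus strand: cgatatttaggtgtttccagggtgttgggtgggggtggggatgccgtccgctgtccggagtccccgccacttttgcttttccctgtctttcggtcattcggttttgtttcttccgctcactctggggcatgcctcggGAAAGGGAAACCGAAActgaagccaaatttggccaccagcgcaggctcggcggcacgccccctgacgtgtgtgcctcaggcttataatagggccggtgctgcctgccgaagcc
IFI44, chr1:78649539-78649788, plus strand: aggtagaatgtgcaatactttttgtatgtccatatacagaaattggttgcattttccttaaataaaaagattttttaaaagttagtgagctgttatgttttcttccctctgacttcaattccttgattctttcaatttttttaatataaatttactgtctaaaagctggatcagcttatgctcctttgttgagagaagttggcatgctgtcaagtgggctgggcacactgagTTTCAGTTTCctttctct
IFI27, chr14:94110486-94110735, plus strand: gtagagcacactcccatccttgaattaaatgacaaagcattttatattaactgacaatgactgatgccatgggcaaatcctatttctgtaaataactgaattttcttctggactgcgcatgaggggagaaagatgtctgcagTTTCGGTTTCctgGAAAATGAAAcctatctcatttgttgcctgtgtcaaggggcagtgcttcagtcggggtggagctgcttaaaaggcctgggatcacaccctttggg
CXCL10, chr4:76023498-76023747, minus strand: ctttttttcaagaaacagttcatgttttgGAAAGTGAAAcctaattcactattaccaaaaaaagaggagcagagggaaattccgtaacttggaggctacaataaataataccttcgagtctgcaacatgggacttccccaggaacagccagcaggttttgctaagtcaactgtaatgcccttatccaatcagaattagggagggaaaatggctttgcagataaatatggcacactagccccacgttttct
XAF1, chr17:6755796-6756045, plus strand: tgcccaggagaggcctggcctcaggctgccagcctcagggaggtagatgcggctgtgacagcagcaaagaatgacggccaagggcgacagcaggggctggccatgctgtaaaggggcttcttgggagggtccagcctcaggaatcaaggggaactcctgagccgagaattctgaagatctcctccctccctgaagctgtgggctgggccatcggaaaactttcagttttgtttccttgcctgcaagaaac
A pair of cores overlap in ISG15, 1 lies close to the start in IFI44, a pair lies in IFI27, and 1 lies far upstream in CXCL10. The window of XAF1 held no match, which says only that these letters are not in it. IFI44, IFI27 and XAF1 each had a second annotated start, whose windows held the same number of matches.

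Over windows of 300 bases, 250 before and 50 after the start, 31 of the 39 members had a RefSeq promoter, in 41 windows. The ISRE core was found for 20 of these 31 members (64.5%), against 3.57% of all 35116 promoter windows and 4.38% of 27305 genes. The gamma-activated site (TTCNNNGAA, which reads the same on both strands) was found for 9 of 31 members, against 7.66% of windows and 9.38% of genes. In IFI27 a gamma-activated site, TTCCTGGAA, overlapped both ISRE cores. Members with and without the core moved in both directions: with Adavivint in empty vector cells, 6 of 19 tested members with a core were higher and 12 lower, and of 11 without a core 5 were higher and 4 lower, beside 85.3% of all genes called in that comparison (44.2% higher, 41.1% lower). A match is a description of letters and not a measured binding site.

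The libraries held 38433169 to 84409062 counts. S100A9 followed the labels of vector and hairpin in all 18 libraries, at 4.49 to 7.10 CPM (counts per 1e6 counts, on scaled library sizes) in U937 empty vector and 0.0595 to 0.400 CPM in U937 shS100A9, and at 3.85 to 9.38 CPM in THP-1 empty vector and 26.3 to 29.1 CPM in THP-1 overexpression. S100A9 itself rose with Adavivint, 2.16-fold with the empty vector (12.8 to 15.0 CPM after the drug, adjusted p = 0.00017) and 3.80-fold with overexpression (103 to 113 CPM after the drug, adjusted p = 2.5e-07). Its part in the drug and interaction results was not tested. Of 10 myeloid markers, 8 to 10 reached 1 CPM in each group, while CD14 lay below 1 CPM in all untreated groups and MPO at 0.457 to 1.08 CPM in the 6 U937 libraries. A pair of U937 libraries stood apart from the other replicates of their groups: the chi-square per degree of freedom was 8.05 between empty vector replicates 1 and 3 but 135 and 142 against replicate 2, and 13.1 between shS100A9 replicates 1 and 2 but 167 and 225 against replicate 3. The deviations of these libraries from their group means, in log2 CPM, correlated with each other at 0.353. With the other replicates of the opposite group they correlated at -0.345 to -0.171. Deviations sum to 0 within each group, so these negative values follow from the positive one and are not separate support. The cause of the separation was not tested. S100A9 in both libraries followed the label. The knockdown comparison is therefore also given without U937 empty vector replicate 2 and shS100A9 replicate 3, a choice made after seeing the data, and the line comparison without U937 empty vector replicate 2. In bulk samples such as these, fewer cells with an active response and less RNA per cell cannot be told apart.

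The members covered a wide range of levels. In THP-1 empty vector cells 3 members had a mean of at least 100 CPM, 14 lay from 10 to 100 CPM, 17 from 1 to 10 CPM and 5 below 1 CPM (IFI27, IFI44, IFI44L, EPSTI1 and GBP1). Per kilobase of exon, the highest level in all 6 groups was that of BST2 (tetherin, which holds budding virus at the cell surface), at 112 ± 9.47 CPM per kb in THP-1 empty vector and 115 ± 24.0 CPM per kb in U937 empty vector (SD, n = 3 each). IFI16, a nuclear DNA sensor, came next in THP-1 empty vector at 33.4 ± 1.89 CPM per kb, followed by IFI6 at 18.4 ± 0.281 CPM per kb and the lysosomal thiol reductase IFI30 at 16.5 ± 0.964 CPM per kb. The summed CPM of all 39 members ran from 803 to 1133 over the 18 libraries, with both extremes in control-vector cells: the highest in U937 empty vector replicate 2 and the lowest in an Adavivint library of THP-1 empty vector cells.

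**Figure D1:**
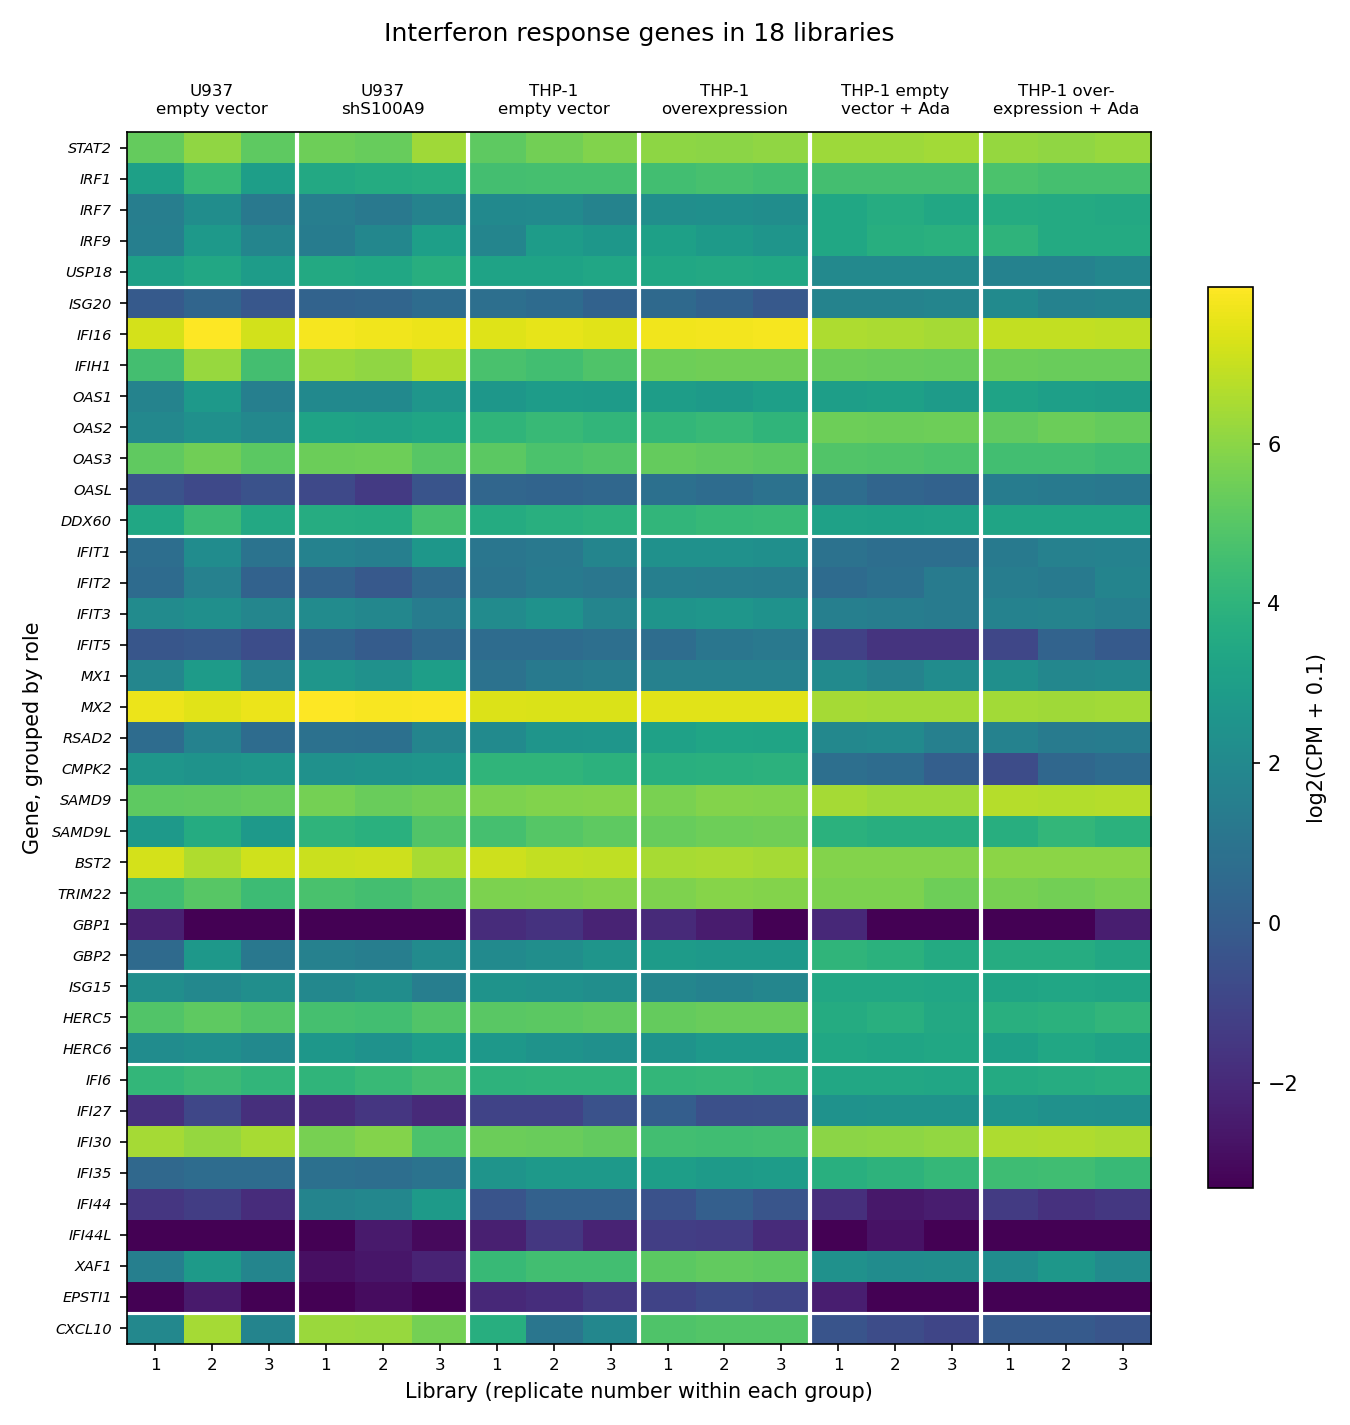
Heat map of log2(CPM + 0.1) for the 39 interferon response genes (rows, grouped by role) in the 18 libraries (columns, 3 per group). U937 empty vector replicate 2 is brighter than its neighbours for CXCL10 and IFIH1, XAF1 is dark in all 3 shS100A9 libraries, and with Adavivint (Ada) some rows brighten, such as IFI27 and OAS2, while others darken, such as CMPK2 and XAF1.

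The untreated control cells of both lines differed in the level of part of the set. The line, the processing of each line and any difference between their empty vectors cannot be told apart in this comparison. U937 empty vector cells had less XAF1, IFI35, OAS2, SAMD9L, CMPK2 and RSAD2 than THP-1 empty vector cells, and more IFI30. Of 36 members tested, 11 were lower and 1 was higher in U937 at an adjusted p below 0.05 (called, from here on), beside 26.2% of all 13695 genes called (14.8% lower, 11.4% higher). By at least 2-fold 10 members were lower, beside 11.5% of genes (8.67% lower, 2.84% higher). The pro-apoptotic factor XAF1 was at 2.82, 6.92 and 3.45 CPM in U937 (replicates 1 to 3) and at 19.3, 23.1 and 23.3 CPM in THP-1. All 3 U937 libraries lay below all 3 THP-1 libraries, a 5.01-fold difference (log2 fold change -2.32, SE 0.33, adjusted p = 0.0025). OAS2, which makes the 2-5A messenger that activates RNase L, was at 3.77, 4.95 and 3.76 CPM in U937 and 16.3, 19.2 and 17.2 CPM in THP-1, 4.26-fold lower (log2 -2.09, SE 0.16, adjusted p = 0.00022). IFI35, a partner of NMI, was 4.52-fold lower (log2 -2.18, SE 0.17, adjusted p = 0.00024), with 1.31 to 1.48 CPM against 5.70 to 6.87 CPM. SAMD9L was 3.58-fold lower (SE 0.27 on the log2 scale, adjusted p = 0.0029), CMPK2 2.79-fold (SE 0.11, adjusted p = 0.00022) and RSAD2 2.59-fold (SE 0.35, adjusted p = 0.026). The remaining lower members IFI44, IFIT5, TRIM22, OASL and SAMD9 were 1.53- to 3.78-fold lower. IFI30 was the exception in direction, at 71.3 to 89.5 CPM in U937 against 38.4 to 43.1 CPM in THP-1, 1.99-fold higher (log2 0.99, SE 0.10, adjusted p = 0.00069).

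More members were called without U937 empty vector replicate 2. Then 21 members were lower and 2 higher in U937, beside 43.9% of 13909 genes called (24.2% lower, 19.7% higher), and the median log2 difference of the 36 tested members went from -0.31 to -0.70. XAF1 was then 7.05-fold lower, OAS2 4.73-fold, IFI35 4.63-fold, SAMD9L 4.58-fold, RSAD2 3.58-fold and CMPK2 2.71-fold, and IFI30 was 2.11-fold higher (each at an adjusted p of 0.00076 or less). The call for RSAD2 was lost when either U937 replicate 1 or 3, or THP-1 replicate 2 or 3, was left out (adjusted p up to 0.095), and that for OASL without THP-1 replicate 2 or 3 (adjusted p up to 0.062). Of 75 tested genes of the wider interferon pathway, 21 were lower (28.0%) and 2 higher (2.67%) in U937. All genes tested gave 14.8% and 11.4%. Without replicate 2, 42 of 75 were lower and 8 higher, beside 24.2% and 19.7% of all genes. The lower pathway genes included SAMHD1, a dNTP hydrolase that restricts retroviruses, and TDRD7. SAMHD1 was at 6.55 to 8.61 CPM in U937 and 90.7 to 97.0 CPM in THP-1 (12.2-fold, log2 -3.61, SE 0.12, adjusted p = 3.5e-05). TDRD7 was 3.24-fold lower. Without replicate 2 these genes were 11.3- and 3.42-fold lower. GBP4 and TLR8 had no count in the 3 U937 empty vector libraries, which makes them at least 95.9- and 30.2-fold lower than in THP-1 against a floor of 3 counts over the group.

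In U937 cells the knockdown of S100A9 came with a near loss of XAF1 and with higher IFI44 and OAS2. These 3 were the only members called of 36 tested (2 higher, 1 lower; 8.33%), beside 1.77% of all 13016 genes called (0.230% higher, 1.54% lower). XAF1 was at 2.82, 6.92 and 3.45 CPM in the empty vector libraries and at 0.0358, 0.0615 and 0.119 CPM in the shS100A9 libraries. The groups were far apart, with a 56.6-fold lower mean (log2 -5.82, SE 0.58, adjusted p = 0.0096). IFI44, an antiviral GTP-binding protein, was at 0.243, 0.311 and 0.166 CPM and rose to 3.35, 3.63 and 7.01 CPM, 19.2-fold (log2 4.27, SE 0.44, adjusted p = 0.010). OAS2 rose from 3.77, 4.95 and 3.76 CPM to 9.25, 8.63 and 9.81 CPM, 2.22-fold (log2 1.15, SE 0.18, adjusted p = 0.036). For none of the 3 did the groups overlap.

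With single libraries left out, these calls were not secure although the differences stayed in place. OAS2 was called in 1 of 6 such fits, that without empty vector replicate 2, and was between 1.08 and 1.30 on the log2 scale in all 6 (adjusted p up to 0.19). IFI44 lost its call without empty vector replicate 1 or 3 (adjusted p 0.071 and 0.067), with a log2 difference of 3.85 to 4.51 over the 6 fits. XAF1 lost its call without shS100A9 replicate 1 or 2 (adjusted p 0.063 and 0.059), and its fold was 85.0 without shS100A9 replicate 3. Most calls over all genes were lost in these fits too. With all 6 libraries 30 genes were higher and 201 lower. Without empty vector replicate 1 or 3, or shS100A9 replicate 1 or 2, 0 to 1 were higher and 18 to 20 lower.

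The chemokine CXCL10, which draws T cells through CXCR3, showed most plainly what the separate libraries do to the U937 comparison. It was at 3.74, 85.7 and 3.30 CPM in the empty vector libraries and at 77.3, 74.4 and 49.0 CPM in the shS100A9 libraries. Empty vector replicate 2 alone exceeded all 3 knockdown libraries. The fitted difference was log2 1.11 (SE 1.16) and was not called (adjusted p = 0.74). IFIH1, the sensor of long double-stranded RNA also called MDA5, was at 23.8, 73.2 and 24.3 CPM against 74.6, 67.2 and 98.0 CPM, so that empty vector replicate 2 lay within the range of the knockdown libraries (log2 0.98, SE 0.45, adjusted p = 0.39). IRF1, a transcription factor, was at 8.51, 19.2 and 7.85 CPM against 11.0, 12.0 and 12.8 CPM. XAF1 was also highest in empty vector replicate 2, at 6.92 CPM against 2.82 and 3.45 CPM, and all 3 were far above the knockdown libraries. IFI44 in that replicate was at 0.311 CPM against 0.243 and 0.166 CPM, far below the knockdown libraries.

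Without both separate libraries, 13 members were higher and 3 lower in shS100A9 cells, beside 32.9% of 13055 genes called, of which 15.2% were higher and 17.7% lower. CXCL10 was then higher by 4.43 on the log2 scale (SE 0.08, adjusted p = 6.0e-07), IFI44 by 4.09 (SE 0.29, adjusted p = 8.7e-05), IFIH1 by 1.56 (SE 0.07, adjusted p = 1.2e-05), OAS2 by 1.25 and SAMD9L by 1.18. The other 8 higher members were IFIT1, IFI16, MX1, MX2, OAS3, IRF1, USP18 and SAMD9, at log2 0.26 to 0.78. The lower members were XAF1 (log2 -5.92, SE 0.37, adjusted p = 5.6e-05), IFI30 (log2 -0.70) and HERC5 (log2 -0.31). Each group then had 2 libraries.

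**Figure D2:**
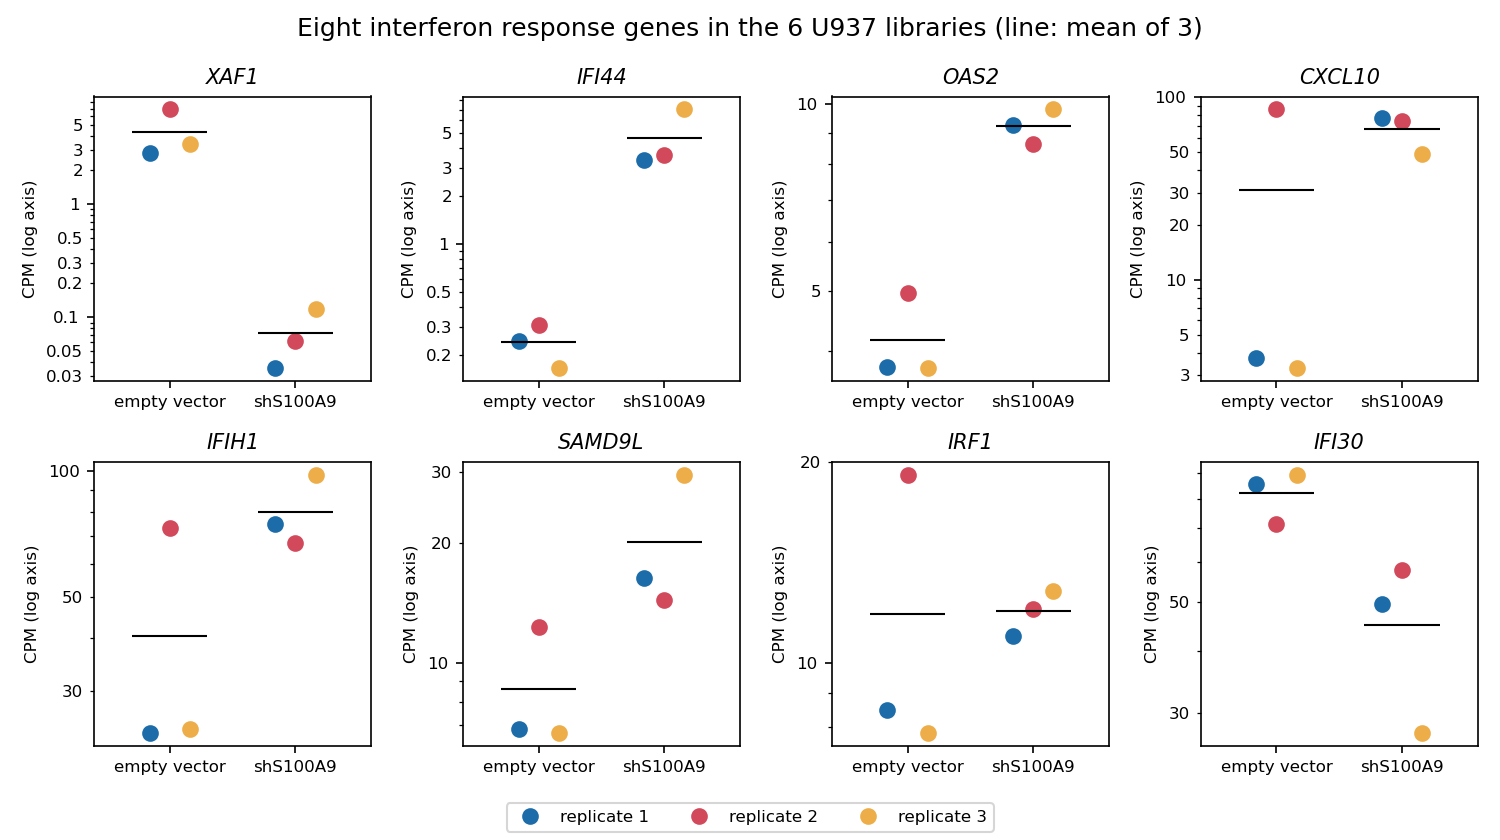
CPM on log axes for 8 interferon response genes in the 3 U937 empty vector and 3 shS100A9 libraries, with points coloured by replicate number and a line at the mean of each group. XAF1, IFI44 and OAS2 do not overlap between groups, while for CXCL10 and IRF1 empty vector replicate 2 lies above every knockdown library.

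The rest of the set moved little or varied within groups in U937. The median log2 difference over the 36 tested members was 0.17, and 0.01 over all genes tested. The 33 members that were not called ranged from log2 -0.87 (IFI30, adjusted p = 0.20) to 1.22 (SAMD9L, adjusted p = 0.19). EPSTI1, GBP1 and IFI44L were below the filter on low counts and were not tested: IFI44L had 0 counts in the empty vector group and 7 in the knockdown group, GBP1 had 4 and 0, and EPSTI1 had 4 and 2. Over 71 tested pathway genes edgeR called 0, beside 1.77% of all genes. An unadjusted p below 0.05 was seen for 8 of the 71, beside 1857 of all 13016 genes. DESeq2 called 3 of 83 (1 higher, 2 lower), beside 228 higher and 562 lower of 16311 genes. Without the separate libraries edgeR called 28 of 71 (17 higher, 11 lower), beside 32.9% of all genes (15.2% higher, 17.7% lower). The summed CPM of the myeloid markers was 763 to 1021 in empty vector and 594 to 628 in shS100A9 libraries. Most of that difference lay in LYZ, at a mean of 417 and 179 CPM, and CD68, at 98.5 and 44.1 CPM. CEBPA was at 203 and 196 CPM, and CD33 (89.6 and 101 CPM) and MPO (0.669 and 0.907 CPM) had higher means with the knockdown. The part of these markers in the results was not tested.

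In untreated THP-1 cells S100A9 overexpression raised CXCL10 and a group of sensors and antiviral effectors by small factors, and lowered IFI30, ISG15 and BST2. Of 38 members tested, 11 rose (28.9%) and 3 fell (7.89%), beside 28.0% of all 15403 genes called, 14.9% higher and 13.0% lower. The median log2 change over the tested members was 0.31, against 0.02 over all genes. CXCL10 was the only called member that changed by at least 2-fold, beside 1.84% of genes (1.27% higher, 0.571% lower).

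CXCL10 was at 13.2, 2.03 and 3.58 CPM in the empty vector libraries and at 28.3, 30.1 and 30.3 CPM with overexpression. The overexpressing libraries were close together and all above the controls, which were spread over a wide range. The rise was 4.67-fold (log2 2.22, SE 0.45, adjusted p = 0.0033), and 10.5-fold without empty vector replicate 1 (log2 3.40, adjusted p = 7.6e-07). Among sensors, IFIH1 went from 25.9, 23.5 and 28.6 CPM to 43.6, 45.0 and 46.0 CPM, 1.73-fold (log2 0.79, SE 0.07, adjusted p = 1.1e-05). The DNA sensor IFI16, the helicase DDX60 and the 2-5A synthetase OAS3 rose 1.23-, 1.35- and 1.20-fold. The groups of IFIH1 did not overlap. OAS3 was not called when any of 4 of the 6 libraries was left out (adjusted p up to 0.11).

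Of the members that block virus translation or replication, IFIT1, which binds capped viral RNA, rose from 2.03, 2.28 and 3.45 CPM to 5.14, 5.06 and 4.80 CPM (1.93-fold, log2 0.95, SE 0.18, adjusted p = 0.0026). RSAD2 (viperin, which makes a chain-terminating nucleotide) rose from 4.08, 5.78 and 5.93 CPM to 8.68, 9.85 and 9.66 CPM (1.79-fold, log2 0.84, SE 0.16, adjusted p = 0.0024). For both genes the lowest overexpressing library was above the highest control. SAMD9L rose 1.42-fold and GBP2, a guanylate-binding protein, 1.39-fold, the latter called in only 1 of 6 fits with a library left out (adjusted p up to 0.115). XAF1 rose from 19.3, 23.1 and 23.3 CPM to 34.3, 37.8 and 36.0 CPM, 1.65-fold (log2 0.72, SE 0.12, adjusted p = 0.00088). Of the 5 regulators only STAT2 was called, at 35.6, 47.0 and 57.1 CPM against 66.2, 64.6 and 68.5 CPM (1.43-fold, log2 0.51, SE 0.12, adjusted p = 0.0063).

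The 3 members that fell have separate roles. IFI30, which reduces disulfide bonds in the lysosome for antigen processing, went from 43.1, 41.4 and 38.4 CPM to 22.9, 22.8 and 23.5 CPM (1.78-fold, log2 -0.83, SE 0.06, adjusted p = 2.1e-06). ISG15, the ubiquitin-like modifier, went from 5.51, 5.04 and 4.65 CPM to 3.52, 3.15 and 3.50 CPM (log2 -0.58, SE 0.10, adjusted p = 0.0013). BST2 went from 138, 120 and 119 CPM to 90.6, 91.4 and 86.9 CPM (1.40-fold, log2 -0.49, SE 0.05, adjusted p = 8.6e-05). In all 3 the groups were separate. The 24 members not called lay between log2 -0.38 (ISG20) and 1.09 (EPSTI1, at 0.150 to 0.271 CPM against 0.389 to 0.472 CPM). GBP1 was below the filter, with at most 0.218 CPM in any library.

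Of 78 tested pathway genes 17 rose (21.8%) and 10 fell (12.8%) with overexpression, beside 14.9% and 13.0% of all genes. APOL6, an interferon-induced apolipoprotein, rose from 105, 116 and 116 CPM to 151, 167 and 163 CPM (1.42-fold, log2 0.51, SE 0.07, adjusted p = 0.00024). GBP5 rose 1.45-fold and the transcription factor IRF5 1.23-fold, while CISH, a suppressor of cytokine receptors, fell 1.48-fold (log2 -0.57, SE 0.09, adjusted p = 0.00085). Of 15 tested sensors and adaptors DHX58, RIGI, STING1 and TLR7 rose and MYD88 fell. No interferon gene was called, but their counts were too few for this test to show whether overexpression changed them. IFNA5 and IFNA14 were the only ligands above the filter, which was applied to untreated and treated THP-1 libraries together. In the untreated libraries IFNA5 had 4 counts with overexpression and 3 with the empty vector. IFNA14 had none with overexpression and 2 with the empty vector. IFNB1 was at 0.00 to 0.0775 CPM in the 6 libraries. The summed CPM of 6 epithelial markers, mainly KRT17 and KRT14, was 3.17 to 5.67 in the empty vector libraries and 9.88 to 11.3 with overexpression, with CDH1 at 0 to 0.0584 CPM; the part of these transcripts in the changes was not tested.

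**Figure D3:**
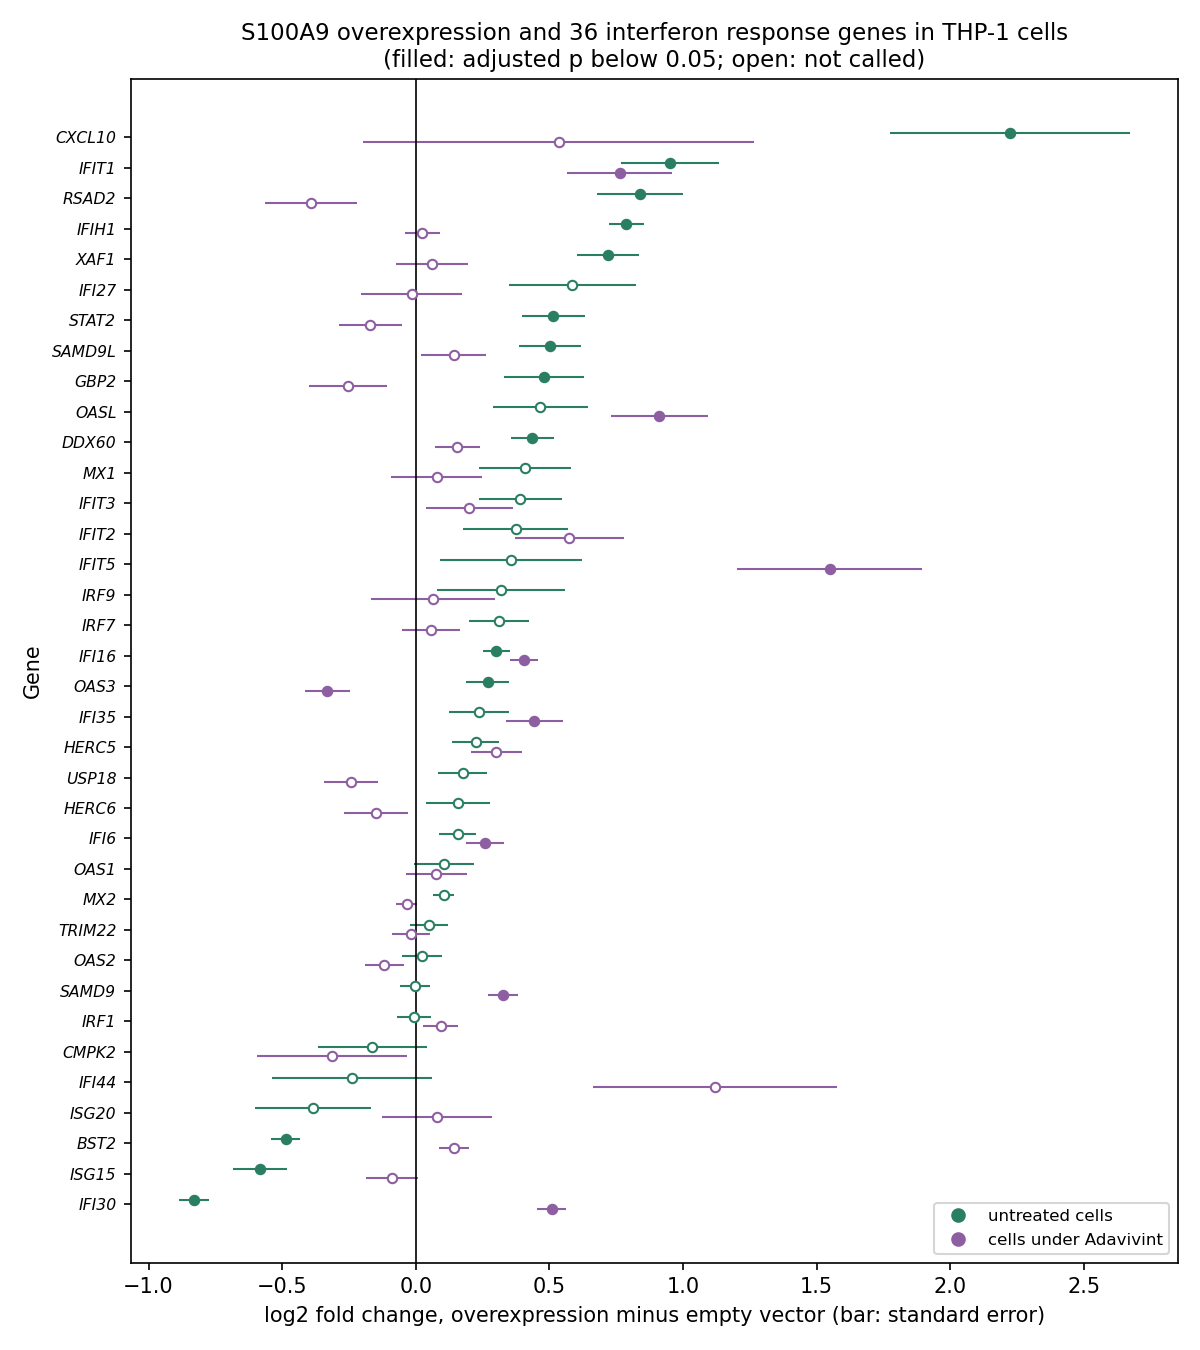
Log2 fold change (overexpression minus empty vector, with its standard error) of 36 interferon response genes in untreated THP-1 cells and in cells under Adavivint; filled points were called. CXCL10 at 2.22 is the largest untreated value, and IFI30 lies at -0.83 untreated and at 0.51 under Adavivint. IFI44L and EPSTI1 are left out because a group had no counts.

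Adavivint split the set. In both THP-1 populations IFI27, IRF7, IFI35, OAS2, ISG20, ISG15 and IRF9 were higher after the drug, while CXCL10, CMPK2, XAF1, HERC5, USP18, SAMD9L, IFI44 and IFIT5 were lower. In empty vector cells 14 of 38 tested members rose and 18 fell, beside 85.3% of all genes called (44.2% higher, 41.1% lower). In overexpressing cells 13 rose and 20 fell, beside 84.7% (43.4% higher, 41.3% lower). Most genes of these cells thus changed with the drug, and the share of members called was near that background. By at least 2-fold, 8 members rose and 11 fell in empty vector cells, beside 47.5% of genes (25.8% higher, 21.7% lower). In overexpressing cells 7 rose and 12 fell by that much, beside 48.2% (25.3% higher, 22.8% lower). The median log2 change of the tested members was -0.16 and -0.35, against 0.06 and 0.04 over all genes. The same 12 members rose in both populations, 12 of the 14 and 12 of the 13, and the same 18 fell in both, 18 of the 18 and 18 of the 20. Agreement over all genes was not counted, so this agreement cannot be called particular to the set. The untreated libraries of each population are also those of the overexpression comparison. Myeloid markers moved with the drug in both directions: in empty vector cells CD14 went from 0.167 to 0.477 CPM up to 20.1 to 22.2 CPM and LYZ from 326 to 335 CPM up to 613 to 732 CPM, while CD33 went from 82.8 to 85.1 CPM down to 20.7 to 23.4 CPM and ITGAM from 26.7 to 28.1 CPM down to 7.37 to 8.28 CPM. The sum of the 10 markers was 829 to 851 CPM untreated and 1043 to 1148 CPM treated in empty vector cells, and 748 to 754 CPM and 1083 to 1127 CPM with overexpression; its part in the drug results was not tested.

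IFI27, a protein of the inner mitochondrial membrane, showed the largest rise. It was at 0.383, 0.377 and 0.620 CPM in empty vector cells and at 5.25, 5.37 and 5.48 CPM with Adavivint (11.6-fold, log2 3.54, SE 0.23, adjusted p = 2.4e-09). In overexpressing cells it went from 0.934, 0.578 and 0.586 CPM to 5.84, 5.16 and 4.93 CPM (7.68-fold, log2 2.94, SE 0.21, adjusted p = 9.6e-09). Treated libraries of both populations reached nearly the same level. IRF7, the transcription factor that amplifies interferon alpha production, rose from 3.95, 4.09 and 3.23 CPM to 10.5, 12.5 and 10.7 CPM (2.98-fold, log2 1.58, SE 0.11, adjusted p = 8.4e-09) and 2.50-fold in overexpressing cells. IRF9, the DNA-binding part of the complex that it forms with STAT2, rose 2.23- and 1.87-fold.

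ISG15 rose from 5.51, 5.04 and 4.65 CPM to 10.6, 10.7 and 10.0 CPM in empty vector cells (2.06-fold, log2 1.05, SE 0.10, adjusted p = 1.7e-07). In overexpressing cells it rose from a lower start, 3.52, 3.15 and 3.50 CPM, to 9.65, 10.2 and 9.66 CPM (2.91-fold, log2 1.54, SE 0.10, adjusted p = 2.8e-09). IFI35 rose from 5.70 to 6.87 CPM up to 13.6 to 17.9 CPM (2.45-fold, adjusted p = 6.8e-08) and, with overexpression, 2.83-fold. ISG20, an RNA exonuclease, rose 2.38-fold (SE 0.21 on the log2 scale, adjusted p = 7.9e-05) and 3.28-fold with overexpression. GBP2 rose 2.93-fold (SE 0.15, adjusted p = 2.4e-07) and 1.76-fold. IFI30 rose 1.64-fold in empty vector cells and 4.13-fold in overexpressing cells, from 22.9, 22.8 and 23.5 CPM to 95.6, 98.4 and 92.0 CPM (log2 2.05, SE 0.06, adjusted p = 6.7e-13). In no treated group of these genes did a library fall to the level of its untreated group.

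CXCL10 and CMPK2 fell by similar factors in empty vector cells, and CXCL10 fell further in overexpressing cells. In empty vector cells CXCL10 went from 13.2, 2.03 and 3.58 CPM to 0.665, 0.512 and 0.418 CPM (11.9-fold, log2 -3.57, SE 0.59, adjusted p = 5.7e-05), and the fall was 5.29-fold without the high empty vector replicate 1, less than that of CMPK2. In overexpressing cells it went from 28.3, 30.1 and 30.3 CPM to 0.827, 0.804 and 0.682 CPM (38.4-fold, log2 -5.26, SE 0.57, adjusted p = 7.5e-07). CMPK2, a mitochondrial nucleotide kinase, fell from 16.6, 16.5 and 15.0 CPM to 1.66, 1.47 and 0.968 CPM (11.8-fold, log2 -3.55, SE 0.25, adjusted p = 5.6e-09). With overexpression CMPK2 fell 13.0-fold. XAF1 fell from 19.3, 23.1 and 23.3 CPM to 5.08, 4.41 and 4.49 CPM (4.69-fold, log2 -2.23, SE 0.13, adjusted p = 7.8e-10) and 7.42-fold with overexpression.

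IFIT5, an RNA-binding relative of IFIT1, fell 5.76-fold (SE 0.33 on the log2 scale, adjusted p = 5.1e-06) and 2.52-fold with overexpression. HERC5, the main ligase that joins ISG15 to its targets, fell 2.83-fold in empty vector cells, from 33.3, 34.3 and 37.0 CPM to 12.0, 14.0 and 11.0 CPM (SE 0.09 on the log2 scale, adjusted p = 1.9e-09), and 2.68-fold with overexpression. USP18, which removes ISG15 and also restrains the type I receptor, fell 2.45- and 3.26-fold. The modifier rose and both its ligase and its protease fell in the same libraries. IFI44 fell 7.82- and 3.05-fold from at most 1.03 CPM. IFI44L and EPSTI1 had 53 and 86 counts in the untreated overexpressing group and 0 in the treated one, which makes them at least 10.6- and 17.0-fold lower. In empty vector cells IFI44L had 25 counts untreated and 2 treated, a ratio of 10.2 with a 95% counting interval of 2.55 to 89.0. The other members that fell in both populations, IFIT1, IFIT3, IFI6, IFI16, MX2, DDX60, BST2, SAMD9L and RSAD2, fell 1.40- to 3.43-fold.

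**Figure D4:**
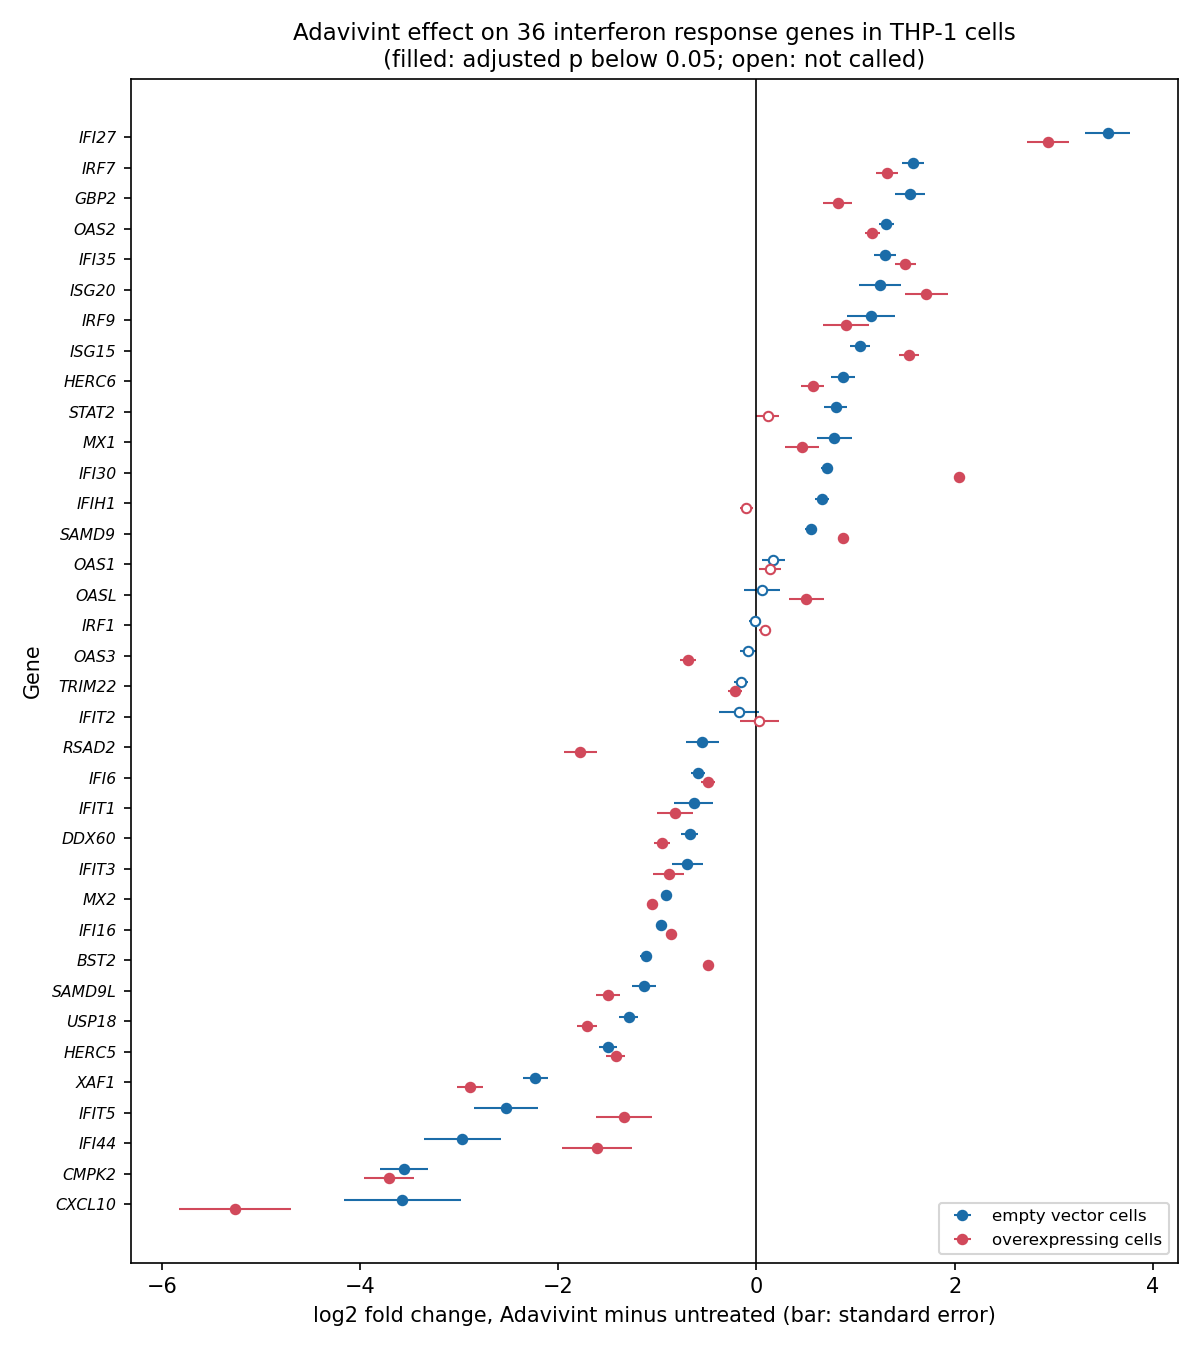
Log2 fold change (Adavivint minus untreated, with its standard error) of 36 interferon response genes in THP-1 empty vector and overexpressing cells; filled points were called. The genes run from CXCL10 at the bottom, at -3.57 and -5.26, to IFI27 at the top, at 3.54 and 2.94, with OAS1, IRF1 and IFIT2 near 0 in both. IFI44L and EPSTI1 are left out because a group had no counts.

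A few members were called in only 1 population. IFIH1 (log2 0.66 and -0.10) and STAT2 (log2 0.80 and 0.11) rose with the drug in empty vector cells. OASL (log2 0.06 and 0.50) rose, and OAS3 (log2 -0.09 and -0.69) and TRIM22 (log2 -0.15 and -0.22) fell, in overexpressing cells. Of these, the difference between populations was itself called for IFIH1, STAT2 and OAS3, and not for OASL (adjusted p = 0.24) or TRIM22 (adjusted p = 0.69). IFIT2, OAS1 and IRF1 were called in neither. In overexpressing cells the calls of MX1 and OASL were lost without overexpression replicate 2 or treated replicate 1 (adjusted p up to 0.10 and 0.073), and that of TRIM22 without treated replicate 2 (adjusted p = 0.052).

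Several members are neighbours on a chromosome (positions from GENCODE 29 on GRCh38), and the drug moved some neighbours in opposite directions and others the same way. In empty vector cells 44.2% of all genes were called higher and 41.1% lower, so unrelated pairs would often be called in opposite directions too. Whether neighbours differ from other pairs of genes in this was not tested. OAS1, OAS3 and OAS2 lie in this order at chr12:112906777-112933222, chr12:112938352-112973249 and chr12:112978395-113011723. OAS2 rose with Adavivint from 16.3, 19.2 and 17.2 CPM to 43.8, 43.4 and 43.5 CPM (2.48-fold, log2 1.31, SE 0.08, adjusted p = 8.5e-10) and 2.25-fold with overexpression. OAS3, 5.15 kb away, was at 34.3, 27.1 and 29.7 CPM and then 29.6, 28.9 and 27.2 CPM, and fell 1.61-fold with overexpression (log2 -0.69, SE 0.08, adjusted p = 2.3e-06). OAS1 was not called in either population. In untreated cells OAS3 had the higher CPM of the pair in all 6 libraries, and in treated cells OAS2 did in all 6, although CPM is not scaled to length.

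MX2 at chr21:41361943-41409390 fell from 167, 158 and 160 CPM to 87.3, 84.6 and 85.2 CPM (1.89-fold, log2 -0.92, SE 0.04, adjusted p = 3.6e-11), while MX1, 10.9 kb downstream, rose from 1.82, 2.34 and 2.65 CPM to 4.11, 3.25 and 4.38 CPM (1.73-fold, log2 0.79, SE 0.17, adjusted p = 0.00072). Both encode dynamin-like GTPases against viruses. HERC5 fell as given above, whereas HERC6, its relative 14.0 kb away on chromosome 4, rose from 6.28, 5.42 and 5.00 CPM to 10.4, 9.68 and 10.6 CPM (1.83-fold, log2 0.87, SE 0.12, adjusted p = 1.1e-05). SAMD9 rose from 53.7, 55.8 and 58.3 CPM to 85.8, 80.2 and 79.2 CPM (1.46-fold, log2 0.55, SE 0.06, adjusted p = 4.7e-07), and SAMD9L, 12.0 kb away on chromosome 7, fell from 30.6 ± 5.21 CPM to 13.9 ± 0.680 CPM (SD, n = 3 each; 2.20-fold, log2 -1.14, SE 0.12, adjusted p = 6.2e-07). SAMD9 and SAMD9L encode paralogous inhibitors of translation. In overexpressing cells these 3 pairs were again called in opposite directions: MX2 2.08-fold lower and MX1 1.37-fold higher, HERC5 2.68-fold lower and HERC6 1.48-fold higher, SAMD9L 2.83-fold lower and SAMD9 1.83-fold higher.

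**Figure D5:**
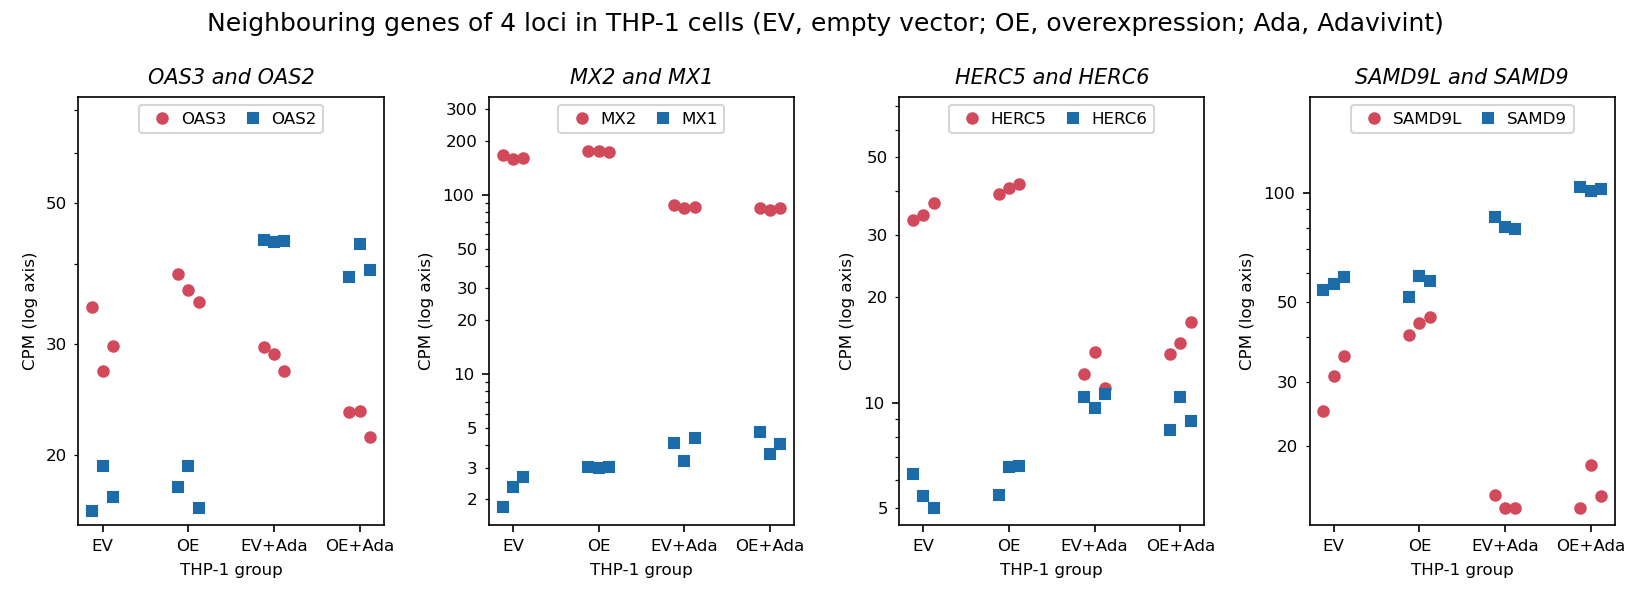
CPM on log axes of 4 pairs of neighbouring genes in the 12 THP-1 libraries, 3 points per group. From untreated to Adavivint groups the squares (OAS2, MX1, HERC6, SAMD9) move up, and the circles of MX2, HERC5 and SAMD9L move down, while OAS3 moves down in overexpressing cells.

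Other neighbours moved the same way. CMPK2 and RSAD2, whose annotated bodies overlap by 830 bases head to head on chromosome 2, both fell with the drug but by different amounts, 11.8- and 1.46-fold in empty vector cells. The strand setting of the counting was not given in the sources used here, so reads in the overlap may have been shared or dropped. IFIT3, IFIT1 and IFIT5 on chromosome 10 fell in both populations and IFIT2 beside them was not called, and the adjacent IFI44L and IFI44 on chromosome 1 both fell. In U937 cells IFI44 rose with the knockdown while IFI44L stayed at 0 to 0.0769 CPM. OAS2 rose with the knockdown and OAS1 and OAS3, at log2 0.14 and 0.04, were not called; whether the neighbours differ was not tested.

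Under Adavivint the called overexpression effects were 1.20- to 2.93-fold. Of 38 members tested, 8 were higher (OASL, IFIT1, IFIT5, IFI30, IFI35, IFI16, SAMD9 and IFI6) and 1 lower (OAS3) in overexpressing than in empty vector cells, beside 8.50% of all genes called (3.69% higher, 4.80% lower). With library totals in place of TMM scaling, 20.2% rather than 43.5% of the calls over all genes were higher, and 7 members were higher and 1 lower. IFI30 was at 64.1, 66.1 and 70.9 CPM in treated empty vector cells and 95.6, 98.4 and 92.0 CPM in treated overexpressing cells (1.42-fold, log2 0.51, SE 0.06, adjusted p = 0.00033). OASL, a synthetase-like activator of RIG-I, was at 1.52, 1.18 and 1.08 CPM against 2.59, 2.36 and 2.16 CPM (1.88-fold, log2 0.91, SE 0.18, adjusted p = 0.0092). IFI16 was at 94.7, 90.7 and 87.1 CPM against 121, 121 and 119 CPM (1.32-fold, log2 0.41, SE 0.05, adjusted p = 0.00090), and SAMD9 was 1.25-fold higher. These groups did not overlap.

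Some of these calls rested on single libraries. IFIT1 (1.70-fold), IFI6 (1.20-fold) and OAS3 (1.26-fold lower, 29.6, 28.9 and 27.2 CPM against 23.4, 23.5 and 21.3 CPM) were each called in 1 of 6 fits with a library left out. IFI35 (1.36-fold, 13.6 to 17.9 against 19.5 to 22.7 CPM) was called in 2 and IFIT5, at most 1.09 CPM in these libraries, was 2.93-fold higher (log2 1.55, SE 0.34, adjusted p = 0.016) and was called in 4. The largest adjusted p in these fits was 0.14, for IFI6. CXCL10, the member with the largest effect of overexpression in untreated cells, was at 0.665, 0.512 and 0.418 CPM against 0.827, 0.804 and 0.682 CPM and was not called (log2 0.53, SE 0.73, adjusted p = 0.72). Of 78 pathway genes 1 was higher (IRF2; 1.28%) and 4 were lower (5.13%), among them GBP5, TYK2 and LY6E. Of all genes 3.69% were higher and 4.80% lower, so the list was not called more often than genes at large. GBP5 was 1.57-fold lower with overexpression, at 5.16 to 6.05 CPM against 7.66 to 9.36 CPM (log2 -0.65, SE 0.10, adjusted p = 0.0020).

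The interaction asked directly whether the drug effect differed between both populations. It was called for 11 of 38 members, 4 higher and 7 lower, beside 19.3% of all genes called (8.04% higher, 11.2% lower). Over all genes 41.7% of these calls were higher, and 28.8% with library totals; the member split was then 4 higher and 8 lower. IFI30 stood out: overexpression lowered it in untreated cells and raised it in treated cells, and the drug effect was larger by 1.34 on the log2 scale with overexpression (SE 0.08, adjusted p = 3.7e-06). BST2 fell with the drug to 57.7, 57.5 and 58.6 CPM in empty vector cells and to 63.7, 63.5 and 64.7 CPM from a lower start in overexpressing cells, a difference of log2 0.63 (SE 0.08, adjusted p = 0.00042). ISG15 (log2 0.49, SE 0.14, adjusted p = 0.026) and SAMD9 (log2 0.33, SE 0.08, adjusted p = 0.013) also rose more with overexpression. The call of ISG15 was lost in 3 of 12 fits without a library (overexpression 2, treated empty vector 3 or treated overexpression 2, adjusted p up to 0.070).

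The members with the opposite difference had mostly been raised by overexpression in untreated cells. RSAD2 fell from 8.68, 9.85 and 9.66 CPM to 3.15, 2.52 and 2.57 CPM in overexpressing cells and from 4.08, 5.78 and 5.93 CPM to 3.75, 4.10 and 2.95 CPM in empty vector cells, a difference of log2 -1.23 (SE 0.24, adjusted p = 0.0043). IFIH1 was at 43.6 to 46.0 CPM before and 41.5 to 42.2 CPM after the drug in overexpressing cells, and went from 23.5 to 28.6 CPM up to 40.0 to 42.3 CPM in empty vector cells (log2 -0.76, SE 0.09, adjusted p = 0.00039). All 6 treated libraries thus had nearly the same IFIH1 level. STAT2 (log2 -0.68, adjusted p = 0.013), OAS3 (log2 -0.60, adjusted p = 0.0045), XAF1 (log2 -0.66, adjusted p = 0.022), GBP2 (log2 -0.73, adjusted p = 0.027) and USP18 (log2 -0.42, adjusted p = 0.049) differed the same way. XAF1, GBP2 and USP18 were called in 8, 5 and 2 of 12 fits with a library left out (adjusted p up to 0.059, 0.072 and 0.11). For CXCL10 the difference of log2 -1.69 (SE 0.86, adjusted p = 0.19) was not called, and without empty vector replicate 1 it was log2 -2.86 (adjusted p = 2.7e-04). The interaction uses the same 12 libraries as the other THP-1 comparisons and is not independent of them.

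Of 78 tested genes of the wider pathway, 26 rose (33.3%) and 40 fell (51.3%) with Adavivint in empty vector cells, beside 44.2% and 41.1% of all genes. In overexpressing cells 24 rose (30.8%) and 38 fell (48.7%), beside 43.4% and 41.3%. Among signalling parts, JAK2 rose from 24.0, 31.1 and 31.7 CPM to 85.8, 77.5 and 70.7 CPM (2.70-fold, log2 1.43, SE 0.10, adjusted p = 8.0e-09), while the receptor chain IFNAR2 was at 117 to 134 CPM and then 35.2 to 40.7 CPM. JAK2, IFNAR2, the sensors that changed with overexpression and the ligands below were named after their values were seen. MAVS, the adaptor of the RNA sensors, fell from 281, 284 and 282 CPM to 122, 129 and 121 CPM (2.28-fold, log2 -1.19, SE 0.04, adjusted p = 5.8e-12). IRF8, a factor of the monocytic lineage, fell 3.57-fold, from 194, 212 and 236 CPM to 62.8, 61.7 and 55.7 CPM. LAP3, an interferon-induced peptidase, fell from 71.5, 68.8 and 65.9 CPM to 12.8, 11.3 and 12.6 CPM, 5.61-fold in empty vector and 5.71-fold in overexpressing cells; UBE2L6, the enzyme that passes ISG15 to its ligase, fell 4.45- and 4.33-fold. In the interaction 6 pathway genes were higher (7.69%) and 14 lower (17.9%), beside 8.04% and 11.2% of all genes, with GBP5 at log2 -1.18 (SE 0.13, adjusted p = 0.00018), IFNGR1 at 0.41, ISG20L2 at 0.60 and JAK1 at -0.26.

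The interferon genes themselves were almost silent except for IFNA5 and IFNA14 in treated cells. IFNA5 had 3 counts over the untreated THP-1 empty vector libraries, all in replicate 1, and was at 5.46, 6.14 and 6.36 CPM with Adavivint. The 795 treated counts give a ratio of 324 with a 95% counting interval of 111 to 1575. In overexpressing cells IFNA5 went from 0.0389, 0.00 and 0.0317 CPM to 7.15, 7.34 and 6.75 CPM. IFNA14 was at 0.545 to 1.08 CPM in the 6 treated libraries; it had 2 counts in untreated empty vector cells and 0 in untreated overexpressing cells, against which it was at least 51.2-fold higher. IFNA17 had 0 counts in untreated and 23 in treated empty vector cells, at least 9.42-fold higher. The other 15 ligands in the table, IFNA17 among them, were at most at 0.214 CPM in any library, and IFNB1 at 0.0909 CPM. The interferon alpha genes are near-identical copies, so reads counted for 1 of them may come from another, and intervals cover counting error alone.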

How the data were processed

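RNA sequencing of 18 libraries was analysed. The authors deposited raw read counts per Ensembl gene, 1 column per library; the counts are whole numbers without normalization. HISAT2 2.0.4 is named in the submitters' processing notes; the counter, genome build, annotation and strand setting were not given in the sources used here. Symbols were matched for 18114 of 18670 identifiers and 556 had none. Libraries were grouped by their titles. The members and gene lists were chosen with earlier results of these data known.

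Genes were tested in edgeR 4.0.16 (R 4.3.3; quasi-likelihood fit and F test) with TMM scaling, filterByExpr and Benjamini-Hochberg adjustment over all genes tested; each adjusted p in the text is from edgeR unless named otherwise. U937 libraries were fitted alone, the 12 THP-1 libraries together, and both untreated empty vector groups together for the line comparison. CPM uses TMM-scaled sizes within each line, so levels set across lines were scaled separately. Standard errors were derived from each log2 fold change and its F statistic. Totals of 38433169 to 84409062 counts set the precision; the floor of a group without counts was 3 counts over the group. No replicate pair agreed within sampling noise (chi-square per degree of freedom 7.18 to 225), so each library counted once. Replicate numbers did not pair libraries: same-number correlations were -0.345 to 0.0921 in U937 and -0.111 to 0.0701 in THP-1. The scripts were tested on simulated counts.

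All 39 members are accounted for. Statistics go to up to 6 called members with the largest fold in each direction per comparison (at least 1 CPM in a group). Of the pathway list (97 of 101 genes in the table) they go to the 4 called genes with the smallest p. Some of these genes are given without a standard error or an adjusted p, or by fold or log2 difference alone. MX1, HERC6 and SAMD9 with Adavivint, IFIT5 and the fits of the line comparison without U937 empty vector replicate 2 were set out after their values were seen. A gene of the pathway list is not reported here. Alternatives were other scalings, filters, DESeq2 1.42.0, a replicate block, fits of the contrast's groups alone and leaving out libraries.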

Additional observations from a re-analysis of the deposited data

Results flagged for a closer look

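The difference between the drug effects with overexpression and with empty vector was called for these genes by edgeR's interaction test, on the log2 scale. They are all called members (4 higher, 7 lower) and the 4 called pathway genes with the smallest p. The other called pathway genes, of 6 higher and 14 lower, are left out of the list. The drug effect was more positive with overexpression for IFI30 (1.34), BST2 (0.628), ISG20L2 (0.597), ISG15 (0.494), IFNGR1 (0.415) and SAMD9 (0.328). It was more negative for RSAD2 (-1.23), GBP5 (-1.18), IFIH1 (-0.763), GBP2 (-0.732), STAT2 (-0.684), XAF1 (-0.660), OAS3 (-0.599), USP18 (-0.417) and JAK1 (-0.263). Each group held 3 libraries, and 19.3% of all genes were called in this test.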

How the results depend on the processing

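Of the 114 calls of members over the 7 comparisons, 112 kept direction and call under each of DESeq2 size factors, library totals and no filter on low counts, and 113 under DESeq2; the calls lost concerned IFI6, USP18, MX1 and TRIM22. Replicate numbers did not pair the libraries; with the number as a block 108 calls were kept, and in U937 0 members were called higher and 0 lower (IFI44 log2 4.20, adjusted p = 0.149; OAS2 1.16, 0.277; XAF1 -5.82, 0.0844). The library most like a given one in another group had the same number in 0 of 6 cases in U937 and 14 of 36 in THP-1. In U937 DESeq2 called 2 members lower, single libraries left out gave 0 to 4 higher and 0 to 1 lower, and without both separate libraries 13 were higher and 3 lower. Calls over all genes changed as well. The block gave 0 higher and 3 lower of 13016 genes, and DESeq2 228 higher and 562 lower of 16311. Single libraries left out gave 0 to 107 higher and 18 to 255 lower, and without both separate libraries 15.2% were higher and 17.7% lower. Leaving out 1 library gave 4 to 7 members higher and 0 to 1 lower for overexpression under Adavivint, and 4 to 10 lower in the interaction. For U937 against THP-1 it gave 1 to 2 higher, 0 to 1 higher by at least 2-fold and 9 to 21 lower. Library totals gave 2 higher and DESeq2 3, beside 1460 and 2005 of all genes. With 1 library left out, 502 to 1174 of all genes were called for overexpression under Adavivint. The interaction then had 1885 to 3724 calls and the line comparison 2122 to 6111. Without U937 empty vector replicate 2, IFI16 (log2 -0.27) and DDX60 (log2 -0.35) were called lower in U937 instead of log2 0.03 each and not called. In U937 28.9% of the genes DESeq2 called were higher, against 13.0% of those edgeR called. The cause of these differences was not tested. Levels below about 0.1 CPM rest on a few counts, and folds of IFI44L, EPSTI1, GBP1 and the interferon genes are limited by that depth.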
